A study of Dicentrarchus labrax with 35 samples.

Results

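The comparison described here followed the gonads of fast-growing European sea bass (Dicentrarchus labrax) from the undifferentiated state to the juvenile testis. It took in 12 of the 35 arrays of the series, each hybridised with RNA from the whole gonad of 1 fish. Group FF held 5 testes of fish that had grown fast early and were then fed in excess so that fast growth went on, taken at 332 days post fertilization. Group F held 7 undifferentiated gonads of the longest fish of the same population, taken at 133 days post fertilization. Samples were chosen by their titles, and all 24200 sea bass probes of the array, designed against 11705 target sequences, entered the fit. Sea bass of all groups were raised at the same temperatures and had the same early food. The other groups are used only for comparison. FS (5 testes) held fast growers that were later slowed, SF (5 testes) slow growers that were later fed in excess, SS (5 testes) fish that stayed slow, all at 332 days, and S (8 gonads) the slow growers at 133 days. The study took only males at the later age, whereas the gonads of the earlier age had no visible sex, so FF and F differ in age, in the sex they hold and in the make-up of the organ, and these cannot be told apart.

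The sea bass has no sex chromosomes of the kind found in mammals. Its sex is set by many genes and by the environment, and larger juveniles more often become females. The undifferentiated gonad is a small ridge of primordial germ cells and somatic cells. In a future male the somatic cells become Sertoli cells, which nurse the germ cells, and Leydig cells, which make androgens, and the germ cells become spermatogonia that multiply before meiosis begins. The study describes its testes as juvenile, without sperm. Levels measured in whole gonads join the level per cell with the share of each cell type, and fewer cells of a type and less RNA per cell cannot be told apart. The files pair no probe with a gene name and hold no probe sequence, and none of the target names matched a RefSeq table of 30274 sea bass genes. Lists of genes of the testis, the ovary, steroid synthesis or germ cells could therefore not be counted, and the labelled tissues could not be checked against marker genes. Probes are given below by the identifiers of the files.

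The FF arrays were brighter than the F arrays. The median spot signal was 228 to 528 on FF arrays and 112.5 to 285 on F arrays, over a background of 16 to 21 and 17 to 20. The scanner software called a median of 78.5% of spots well above background on FF arrays (range 67.2 to 81.1%) and 65.1% on F arrays (43.2 to 71.5%). Arrays have no depth of counting, so their number limits the precision. Spike-in probes, which bind RNA added to each sample, had a log2 level relative to the 75th percentile of the array of -0.57 ± 1.52 in FF (SD, n = 5) and -0.25 ± 1.11 in F (SD, n = 7). All F arrays were scanned on the second of 2 days, with FF2, while FF1, FF3, FF4 and FF5 were scanned on the first. Of the other groups, all FS, SF and SS arrays were scanned on the first day, and the S arrays 4 on each day. No slide held both FF and F arrays, so slide and group cannot be told apart.

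The level of many transcripts differed between FF testes and F gonads. A probe was called when its levels differed 1.5-fold or more with an adjusted p below 0.01 in limma (Benjamini-Hochberg adjustment), and 5939 of 24200 probes (24.5%) were. Of these, 3667 (15.2% of all probes) were higher in FF and 2272 (9.39%) were lower. The called probes belonged to 1993 targets with a higher and 1356 with a lower level in FF. The median change was 1.01 on the log2 scale among probes called higher (2.02-fold) and -1.24 among those called lower (2.37-fold), while over all probes it was 0.02. The standard error of a change had a median of 0.164 over probes, and the lowest adjusted p in limma was 8.09e-11. At 2-fold or more, 1881 probes (7.77%) were higher and 1500 (6.20%) lower, 14.0% together. At 5998 probes (24.8%) the values of the FF and F arrays did not overlap at all, with FF above F at 3563 (14.7%) and below F at 2435 (10.1%). FF2 was the only FF array scanned on the day of the F arrays, so a fit with the day as a term (1085 calls) and the comparison of FF2 with F within that day (671 calls) both rest on 1 FF array. The FF arrays of the other day, each set alone against F, gave 629 to 1332 calls. Within the day, 99.8% of the 5939 probes changed in the same direction, by a median of 1.03 at those called higher and -1.13 at those called lower, and FF2 is itself among the 5 FF arrays.

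More probes were called higher than lower, but the larger changes were more often falls. Changes of at least 8-fold were called at 66 probes higher and 182 probes lower in FF, and changes of at least 16-fold at 10 higher and 71 lower. Among probes well above background on all 12 arrays the changes ran from -8.41 to 4.13 on the log2 scale. The excess of small rises depended on how arrays were scaled to each other. With the processed signal scaled to the 75th percentile of each array 53% of the calls were higher in FF (3346 higher and 2972 lower), against 61.7% here. With only the median of each array subtracted 41.3% were higher (3760 higher and 5339 lower). These scalings moved the median change of all probes to -0.11 and -0.21. The excess of falls among changes of at least 8-fold was found under both, with 362 higher and 687 lower after scaling to the 75th percentile and 87 higher and 178 lower after subtraction of the median. At 4-fold the order held in the first 2 scalings, with 349 higher and 484 lower here and 1126 higher and 1586 lower at the 75th percentile, and turned after subtraction of the median (511 higher and 475 lower).

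**Figure D1:**
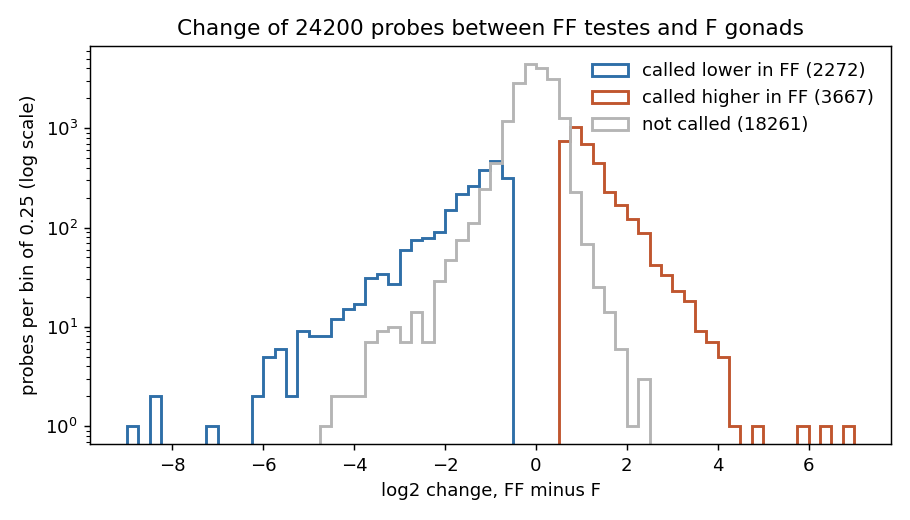
Number of probes (log scale) by log2 change, FF minus F, for probes called higher in FF, called lower in FF and not called. The tail of called falls is longer and fuller than that of called rises, with 182 falls and 66 rises of at least 8-fold.

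Over the 24035 probes measured on all arrays of the series, the mean profiles of FF and F lay 134 log2 units apart (Euclidean distance), and 234 apart when arrays were scaled to the 75th percentile. This exceeded all other divisions of the 12 arrays into 5 and 7 (exact permutation test, p = 0.0013, the smallest that 5 against 7 arrays allow). That test exchanges arrays of both scan days freely. Within the second day FF2 lay 133 from the mean of F, against at most 121 for an F array from the mean of the rest (exact permutation test, p = 0.125, the smallest that 8 divisions allow). The distance was carried unevenly, since the 1% of probes with the largest differences held 22.6% of its square and the top 10% held 66.5%. FF arrays correlated with each other at a median Pearson's r of 0.970 across probes (range 0.948 to 0.976), F arrays with each other at 0.937 (0.860 to 0.973), and FF with F arrays at 0.839 (0.772 to 0.874). These are correlations across probes, which are not replicates. At 91.7 to 98.4% of the called probes a given FF array lay beyond all F arrays, and at 92.4 to 98.0% a given F array lay beyond all FF arrays. The probes were picked for this difference, so these shares are a description and high shares follow from the choice.

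The FF arrays varied less among themselves than the F arrays. The median SD of a probe was 0.226 in FF and 0.291 in F (log2 units), the 90th percentile of the SD was 0.490 in FF and 0.667 in F, and at 63.4% of probes the SD was the larger in F. Part of this lay in F7. Its values deviated from the mean of the other F arrays with an SD over probes of 0.786, against 0.422 to 0.513 for F1 to F6 and 0.270 to 0.425 for the FF arrays (each from the others of its group). Without F7 the median SD of F was 0.273 and the SD was the larger in F at 59.4% of probes. F arrays were also dimmer, as given above, and F gonads had no visible sex. The part of either in the spread was not tested.

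F7 departed from its group in 1 direction above all. At 538 probes of 227 targets (2.22% of the array) its level was at least 4-fold above the mean of F1 to F6, and at 58 probes it was at least 4-fold below. The median level of the 538 probes was 7.93 over the means of FF, 12.27 in F7 and 8.61 over the means of F1 to F6. FF testes thus did not share the high levels of F7 at these probes. Of the 538, 13 (2.42%) were called higher in FF, against 15.2% of all probes, and 45 (8.36%) lower, against 9.39%. The probes were picked by F7, which is itself in the F group of the fit. The choice raises the mean and the spread of F and works against calls higher in FF, so these shares are only a description. F7 also touched the probes that changed much but were not called. There were 90 uncalled probes with a mean at least 4-fold lower in FF, and at 51 of them (56.7%) F7 was the highest F array. Without F7, 27 of the 90 passed the test, and 53 still fell at least 4-fold. In all, 6295 probes were called without F7, 3676 higher and 2619 lower in FF.

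The 66 probes called at least 8-fold higher in FF (32 targets) and the 182 called at least 8-fold lower (94 targets) were then followed through all groups. They were picked by their change between FF and F, so their levels in these groups are a description. Over the 66 probes the median level was 12.02 to 12.47 on the 5 FF arrays and 8.23 to 8.84 on the 7 F arrays. All 66 were well above background on every FF array, and 29 on every F array. Over the 182 probes the median level was 8.16 to 8.56 on the FF arrays and 12.30 to 12.72 on the F arrays. Of these, 178 were well above background on every F array and 103 on every FF array, and 18 on no FF array. The ranges of FF and F did not overlap at 57 of the 66 and 176 of the 182 probes, where over all probes this held at 14.7% for rises and 10.1% for falls, and the choice of the probes favours it.

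The large falls were found alike in testes of every growth history. The median level of the 182 probes was 8.26 to 8.89 on SF arrays, 8.20 to 8.84 on SS arrays and 11.12 to 13.09 on the S arrays of slow-growing fish at 133 days. Of the S arrays, S5, S6 and S7 gave the lowest medians, at 11.12, 11.83 and 11.77. With S8, at 12.67, they shared a slide and were the S arrays of the first scan day, and the part of slide or day was not tested. The median change was -3.72 for FF minus F, -3.33 for SF minus S and -3.24 for SS minus S. In limma, 181 of the 182 were called lower in SF than in S and 170 in SS than in S, with backgrounds of 9.42% and 9.24% of all probes. FS arrays had medians of 8.24 to 8.84. FS shares its control fish with FF, and its own median change against F was -3.80.

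The large rises were less even. On SF arrays the median level of the 66 probes was 11.78 to 12.66, on SS arrays 11.71 to 12.10, and on S arrays 8.16 to 9.07. The median change was 3.39 for FF minus F, 3.34 for SF minus S and 3.07 for SS minus S, and 62 of the 66 probes were called higher both in SF than in S (16.3% of all probes) and in SS than in S (14.0%). The FS testes fell into separate levels. FS3 and FS5 had medians of 12.51 and 12.06, just above and within the range of FF, while FS1, FS2 and FS4 had 10.35, 10.30 and 10.32, between the ranges of FF and F. On the 182 falling probes the same 3 fish were within the range of the FF arrays, at 8.40, 8.31 and 8.24. Whether the FS fish differ at these probes was not tested, since the probes were chosen from groups that include their controls.

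**Figure D2:**
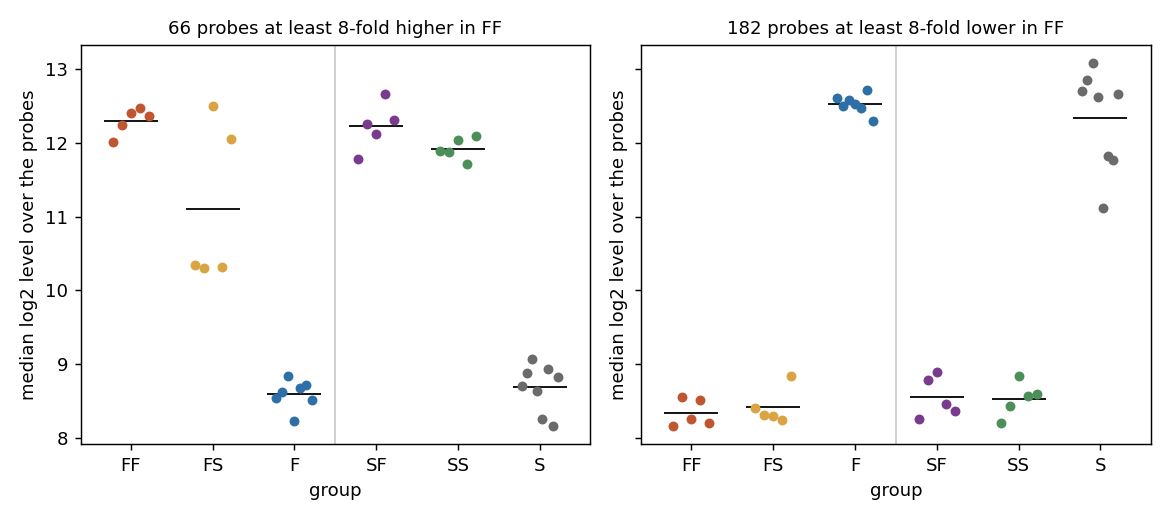
Median log2 level over the 66 probes at least 8-fold higher in FF (left) and the 182 at least 8-fold lower in FF (right), 1 point per array, with the mean of each group as a line. FS1, FS2 and FS4 lie near 10.3 on the left, between FF and F, and among the other testes on the right.

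The probes with the largest rises and falls are given with the values of every FF fish. They were taken from called probes that were well above background on every FF and F array. Values of FF and F that did not overlap were a condition of the choice. Their gaps and limma adjusted p values are therefore a description. CUST_4509_PI416070213 (target SeabassC-CL284Contig1) had log2 levels of 15.83, 14.97, 15.61, 14.05 and 15.47 in FF1 to FF5, against a lowest of 10.99, a median of 11.04 and a highest of 11.26 in the F gonads. The F fish were almost equal and every FF fish was at least 2.78 above the highest of them. Its mean was 15.19 ± 0.71 in FF (SD, n = 5) and 11.05 ± 0.10 in F (SD, n = 7), a change of 4.13 with a standard error of 0.25 (17.5-fold, limma adjusted p = 1.35e-07). The other probes of its target changed by 3.99 and 4.13. In fish of other histories its mean was 15.14 ± 0.56 in SF, 15.15 ± 0.34 in SS (SD, n = 5 each) and 11.09 ± 0.20 in S (SD, n = 8). In the FS testes it was 13.41, 13.10, 15.50, 13.35 and 14.56 in FS1 to FS5, so that FS1, FS2 and FS4 were below every FF fish.

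CUST_6240_PI415922062 (target SeabassC-CL26Contig1) rose to 14.51, 15.45, 15.32, 14.82 and 15 in FF1 to FF5, against a lowest of 9.88, a median of 10.80 and a highest of 12.64 in F. Here the F gonads spread more widely than the FF testes. The mean was 15.02 ± 0.38 in FF (SD, n = 5) and 10.95 ± 0.97 in F (SD, n = 7), a change of 4.07 with a standard error of 0.42 (16.8-fold, limma adjusted p = 9.34e-06). This target has a single probe, so no other probe bears on it. Its mean was 15.23 ± 0.99 in SF, 14.68 ± 0.94 in SS (SD, n = 5 each) and 10.95 ± 0.74 in S (SD, n = 8). FS3 and FS5 had 15.29 and 15.22, within the range of FF, while FS1, FS2 and FS4 had 13.68, 12.42 and 12.35, below it. FS2 and FS4 were also below the highest F gonad. Levels below the range of FF were found in SF1, SS1 and SS4 too, at 14.13, 13.20 and 14.38. The remaining SF and SS testes were not below it.

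CUST_14587_PI416070213 (target cDN27P0007K09.F.ab1) fell the most of the probes measured on both sides. Its level was 9.22, 9.32, 9.23, 11.32 and 9.35 in FF1 to FF5, against a lowest of 17.27, a median of 18.05 and a highest of 18.61 in F. FF4 kept a higher level than the other testes but lay 5.96 below the lowest F gonad. The mean was 9.69 ± 0.91 in FF (SD, n = 5) and 18.10 ± 0.47 in F (SD, n = 7), a change of -8.41 with a standard error of 0.36 (341-fold lower, limma adjusted p = 1.11e-08). The other probes of the target changed by -7.08 and -8.38. The level was 9.42 ± 0.36 in SF, 9.88 ± 0.58 in SS and 9.36 ± 0.47 in FS (SD, n = 5 each), against 17.76 ± 0.49 in S (SD, n = 8).

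CUST_3718_PI416070213 (target SeabassC-CL2297Contig1) had 8.21, 8.69, 8.03, 8.68 and 7.97 in FF1 to FF5, against a lowest of 12.81, a median of 14.11 and a highest of 14.76 in F. All FF testes were alike and far below all F gonads. The mean was 8.32 ± 0.35 in FF (SD, n = 5) and 14.04 ± 0.64 in F (SD, n = 7), a change of -5.72 with a standard error of 0.29 (52.8-fold lower, limma adjusted p = 4.48e-08), and the other probes of the target changed by -5.91 and -5.56. The level was 8.79 ± 0.57 in SF, 8.27 ± 0.30 in SS and 8.41 ± 0.20 in FS (SD, n = 5 each), against 13.89 ± 1.42 in S (SD, n = 8), where S5 and S6 stood below the rest at 11.56 and 11.93. S7 and S8, of the same slide and scan day, had 14.03 and 15.21. The differences between the change in fast growers and that in SF or SS fish did not pass the test for any of the 4 probes (limma adjusted p = 0.593 to 0.965). These differences were between -0.62 and 0.34, with standard errors of 0.29 to 0.73.

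**Figure D3:**
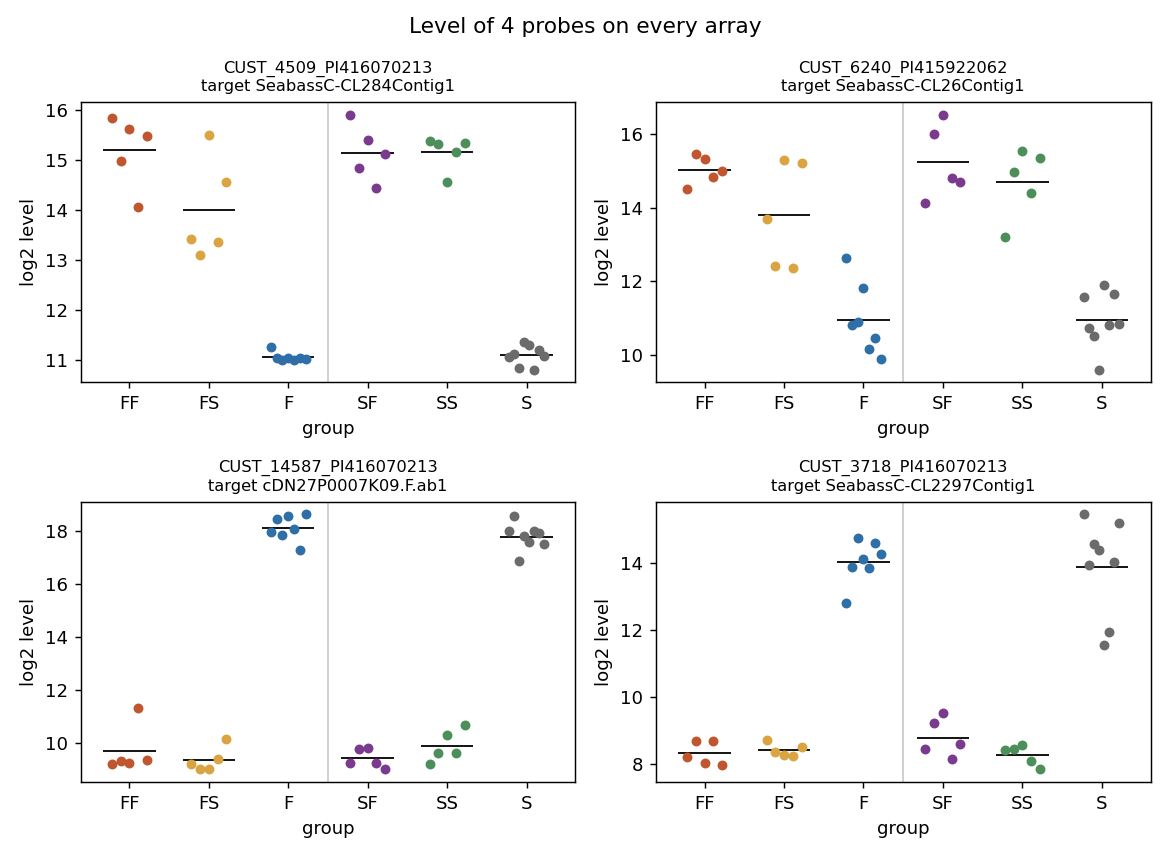
Log2 level of 4 probes on each array, by group, with the mean of each group as a line (5 arrays each in FF, FS, SF and SS, 7 in F, 8 in S). FF minus F was 4.13 and 4.07 for the upper probes and -8.41 and -5.72 for the lower ones. The 4 were chosen among probes without overlap of FF and F.

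Most targets of the array are covered either by 3 probes or by 1. The calls of probes of the same target can therefore be set side by side. Of 6127 targets with 3 probes, 2039 had at least 1 probe called. At 1077 of these (52.8%) all 3 probes were called in the same direction, 696 higher and 381 lower in FF, and at 2036 no 2 probes were called in opposite directions. All 3 changes had the same sign at 1952 of the 2039 targets (95.7%), against 77.4% of all targets with 3 probes. At the 2039 targets the changes thus mostly had the same sign, while the calls often differed. Over all 6127 targets with 3 probes, most of them without a call, the median range of the 3 changes was 0.247 on the log2 scale. Targets with 1 probe numbered 5439, of which 1263 (23.2%) were called, near the 24.5% of all probes. Counts of probes are therefore not counts of genes. With the probes of a target joined into 1 value, 2817 of 11705 targets were called, 1644 higher (14.0%) and 1173 lower (10%) in FF.

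Some transcripts crossed the limit of detection between these ages. At 291 probes (240 targets) the signal was well above background on all 5 FF arrays and on no F array. Of these, 208 were called, all higher in FF, against 15.2% of all probes, but the choice by detection itself favours a difference. For such probes only a bound can be given, the FF mean against, per F array, the higher of the probe's own level and the lowest level of any probe well above background. The median bound was 1.57-fold higher in FF, the highest was 14.1-fold, and 83 probes had a bound of 2-fold or more. Most were near the limit. In the testes of slow growers 286 of the 291 were well above background on all SF arrays and 248 on all SS arrays. At 133 days, however, only 101 of the 291 were well above background on no S array. The reverse was rarer, with 23 probes (18 targets) well above background on all F arrays and on no FF array. Of these 22 were called lower (9.39% of all probes, with the same reservation). Their median bound was 4.30-fold lower in FF and the highest was 57.6-fold. Of the 23 probes, 14 were well above background on all 8 S arrays, but only 6 on no SF array and 15 on no SS array. Bounds depend on the floors of the dimmer group, so the bounds of the rises and of the falls are not comparable in size. F arrays were dimmer than FF arrays, as given above, and the part of brightness in these counts was not tested.

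Calls were also more frequent at bright probes. Among the 6050 probes with the lowest mean levels the share called higher in FF was 2.68% and the share lower 1.37%, and among the 6050 brightest these were 25.1% and 15.4%. Among the 8807 probes well above background on all 12 arrays the directions were nearly balanced, at 18.4% higher (1619) and 16.4% lower (1442) in the fit of all probes.

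The names of the targets fall into series, of which assembled contigs form 1 and clones numbered cDN22 to cDN35 the rest. What tissue or library a series came from is not given in the sources used here. The series cDN23 and cDN24 had the lowest shares of falls. Of the 1095 probes of cDN23, 19.4% were called higher in FF and 1.74% lower, and of the 891 of cDN24, 21.2% were higher and 4.83% lower. In the other 12 clone series 9.36 to 14.5% were called higher and 6.12 to 12.5% lower, and among the 7619 probes of assembled contigs 20.1% and 11.1%. Counted by targets the shares were 18.8% higher and 1.09% lower in cDN23, 19.3% and 5.00% in cDN24, and 9.43 to 14.5% higher and 6.04 to 12% lower in the other clone series. The median change of all probes was 0.16 in cDN23 and 0.24 in cDN24, against -0.10 to 0.01 in the other clone series. In assembled contigs it was 0.10, and by targets 18.9% were higher and 12.6% lower.

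These series also had high shares of rises and low shares of falls in the slow growers, which share no fish with this comparison. Scan day is not independent, since the testes were mostly (FF) or only (SF and SS) scanned on the first day, as given above. In cDN23 the share of probes higher in SF than in S was 23% and the share lower 2.47%, and 21% were higher and 1.92% lower in SS than in S. In cDN24 24.7% were higher and 3.70% lower in SF, and 20.5% higher and 3.82% lower in SS. The other clone series had 9.15 to 14.5% higher and 5.14 to 13.4% lower in SF, and 9.19 to 13.2% higher and 4.43 to 13.5% lower in SS. Assembled contigs had 22.2% higher and 11.3% lower in SF, and 18.1% higher and 11.9% lower in SS. High shares of rises were thus not particular to cDN23 and cDN24. After scaling to the 75th percentile the shares between FF and F were 21.6% higher and 3.01% lower in cDN23 and 20.8% and 5.50% in cDN24. In assembled contigs they were 17.2% and 14.9%. With array medians subtracted both series became nearly even (17.7% higher and 16.9% lower, and 17.7% and 16.6%), while in the other clone series 8.73 to 14.6% were higher and 18.1 to 35.1% lower. Assembled contigs then had 21.4% higher and 13.4% lower, a smaller share of falls than cDN23 or cDN24. The probes of both series were dim in F, as were those of some other clone series. On average 70.2% of the cDN23 probes were well above background on an FF array and 41.2% on an F array, and 70.3% and 40.8% of the cDN24 probes, against 73.2% and 57.6% of all probes. On F arrays the shares of cDN25, cDN26 and cDN35 were much the same, at 42.8, 40.5 and 43.8%. Among probes well above background on all 12 arrays, 24.4% were higher and 4.23% lower in cDN23 (213 probes), and 22% higher and 15.7% lower in cDN24 (191 probes), where the other clone series had 12.5 to 21.4% higher and 11.5 to 25% lower. At these bright probes the share of falls was thus below the range of the other clone series in cDN23 and within it in cDN24. Bright probes of assembled contigs (4001 probes) were higher at 19.5% and lower at 15.8%, a share of falls near that of cDN24. No test was made between the series.

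**Figure D4:**
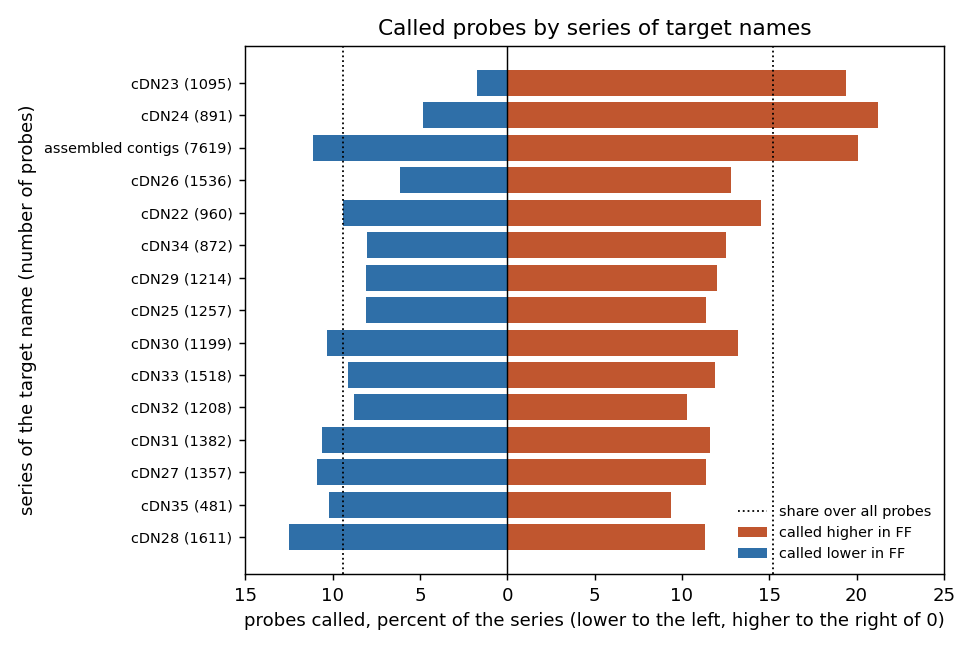
Percent of the probes of each series of target names called higher (right of 0) and lower (left of 0) in FF than in F, with the number of probes in brackets and the shares over all probes as dotted lines. Series cDN23 and cDN24 have the smallest shares of falls, 1.74 and 4.83%.

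Whether the change with age differed with growth history was asked by setting FF minus F against the same change in slow growers, with S as the starting point. SS differed from FF both in early growth and in later ration, and these cannot be told apart. In limma, SF differed from S at 6225 probes (25.7%) and SS from S at 5619 (23.2%). Of the 5939 probes called between FF and F, 4311 were also called in the same direction between SF and S (72.6% of the 5939 and 69.3% of the SF list) and 3766 between SS and S (63.4% and 67.0% of the SS list). No probe was called in opposite directions in either. The changes of the 5939 probes had the same sign in SF minus S at 99% and in SS minus S at 98.2%. Across all 24200 probes the changes correlated at r = 0.899 with SF minus S and at 0.864 with SS minus S, as a description across probes of 1 platform that share brightness and normalization. All SF and SS arrays and 4 of the 5 FF arrays were scanned on the first day. All F arrays and 4 of the 8 S arrays were scanned on the second. Age and scan day were thus partly joined in the same way in all these changes, and the part of the day in their agreement was not tested.

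**Figure D5:**
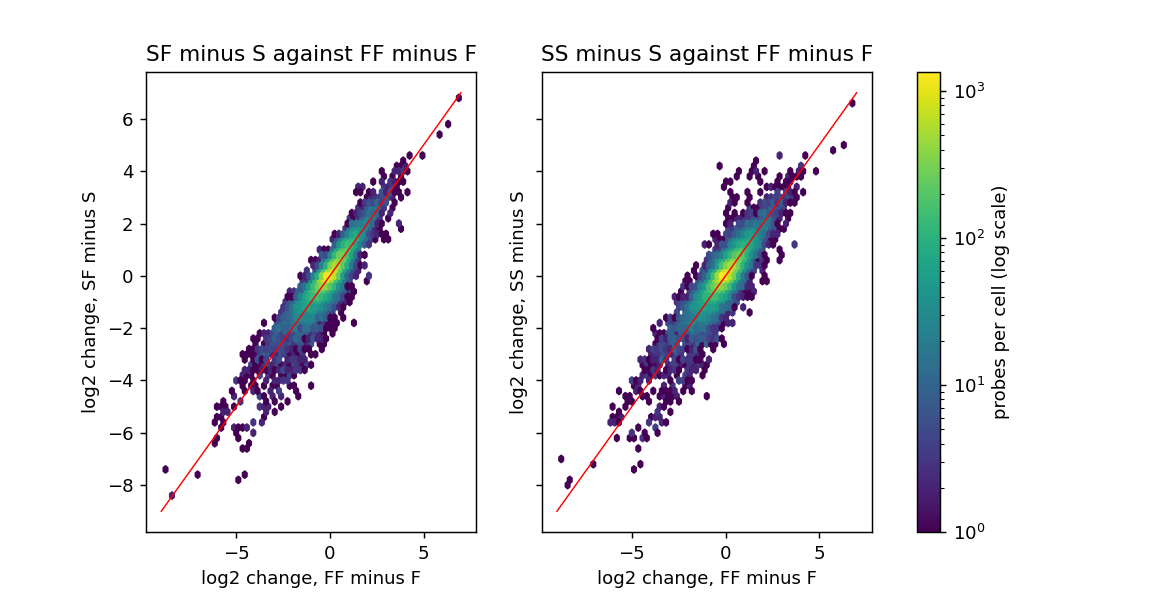
Log2 change of each of the 24200 probes in slow growers, SF minus S (left) and SS minus S (right), against the change FF minus F, with colour for the number of probes per cell (log scale) and a line of equal change. Points follow the line, with a group above it on the right at changes near 0 in FF minus F.

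The difference of the changes was then tested itself. For (FF minus F) minus (SF minus S), the count in limma was 0 of 24200 (0%). Before adjustment 2214 probes had a p below 0.05, and no adjusted p was below 0.543. No other tool was run on this contrast. The median standard error of such a difference was 0.24 on the log2 scale, so that small differences were not detectable with these arrays. Larger ones can be missed too. In simulated data with 200 probes changed 3-fold in FF, this contrast called 74.5% of them, and the contrast with SS minus S called 71%. For (FF minus F) minus (SS minus S), limma called 17 probes (0.0702%) of 14 targets. Before adjustment 3796 probes had a p below 0.05, and the lowest adjusted p was 1.72e-06. Of the 17 differences, 15 were negative (0.062% of all probes), that is, SS minus S was the larger change. At these 15 probes the change was -0.43 to 0.70 in fast growers and 0.65 to 4.19 in SS minus S. The spike-in level was 4.40 ± 0.92 in SS (SD, n = 5) and 0.63 ± 1.47 in S (SD, n = 8), and its part in these calls was not tested. In SF minus S, where the spike-in level of SF was -1.09 ± 0.63 (SD, n = 5), the same 15 probes changed by -0.41 to 1.12. The count of 17 moved with the fit, to 2 with slide as a random block, 42 with all 6 groups in 1 fit and 158 with array weights. The count also moved with single arrays. It was 51 without SS1, and 5 to 11 without any one of F1, F4, F5, F6, F7, S1 to S5, S7, FF1 to FF5, SS2 or SS3.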

How the data were processed

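Gonads of 35 sea bass were measured on 1-colour Agilent arrays, of which 12 (FF and F) are the subject here. The authors deposited the scanner output of Agilent Feature Extraction, with the median intensity of each spot and of its background on a linear scale and flags per spot, and a matrix of processed log2 values (24260 rows, 5.71 to 18.66). The matrix served as an alternative. The paper gives normexp correction, quantile normalization and limma, with limma also in the submitters' processing notes.

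From the scanner output, median signals were corrected by normexp (offset 50), control spots (1417 of 45220) were removed, quantile normalization was run over the 43803 spots of sea bass sequence on the 35 arrays, and the median of the unflagged spots was taken per probe as log2. On FF and F arrays 798 sea bass spots were flagged and 0 saturated. A spot was reliable at 2 times the background or more. No FF or F array had less than 99.863% reliable probes, and no probe was left out. All 24200 probes entered the fits, and 24157 had a value on all 12 arrays.

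limma 3.58.1 (lmFit and eBayes, R 4.3.3, data.table version 1.17.8) was fitted to the groups compared without covariates, with calls at a fold change of at least 1.5 and an adjusted p under 0.01. As a trial of the code, known changes between FF and F were put into 200 of 24035 simulated probes. Of these, 5% were called at 1.5-fold (by the adjusted p alone, without the fold threshold), 59.5% at 2-fold and 82.5% at 3-fold. The real fit called 24.5% of its probes, and the adjusted p depends on how many probes change. These rates therefore do not give the sensitivity of the fit of FF and F. Plots used matplotlib 3.10.9 in Python 3.11.15. Each array is 1 fish. Replicate numbers do not pair the samples.

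The comparison, the probe sets and the lists were chosen with earlier results of these data known. Probes named are the 2 largest rises and the 2 largest falls among called probes that were well above background on all FF and F arrays, came from different targets and did not overlap between FF and F. The lists of genes and of cell type markers were not used, since no probe could be named. The labels of the RNA extraction give another age than those of the samples, and the paper gives a later age for the testes, counted from hatching. The ages printed are those of the samples. Alternatives were other scalings, background corrections, filters, summaries, fits, batches, the replicate block and each array left out.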

Additional observations from a re-analysis of the deposited data

Results flagged for a closer look

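Single values were looked at for distance from their group in 18 sets of values, of which chance sets apart about 1 in 20. For CUST_4509_PI416070213, F1 stood apart from the other F gonads at 11.26, in a group whose whole range was small. For CUST_14587_PI416070213, FF4 stood apart from the other testes at 11.32. F7 stood apart on 2 related measures, with a mean correlation of 0.795 with the FF arrays and of 0.881 with the other F arrays. The change with age differed between FF minus F and SS minus S, by a test of the difference itself, at 17 probes in limma.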

How the results depend on the processing

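The count of 5939 called probes kept within 1.5 times under 25 of 35 settings. It was 4877 to 6295 with each array left out (3113 to 3676 higher and 1764 to 2619 lower in FF). It moved to 3184 (1648 higher) in a refit of only the 8807 probes well above background on every array, to 2817 targets (1644 higher, 1173 lower), which are fewer features, and to 3381 (1881 higher, 1500 lower) at a fold change of 2. With array medians subtracted, a setting added with the data in view, it was 9099 (5339 lower). The cause was not tested. The lowest counts came from fits that rest on 1 FF array. With the day as a term 1085 probes were called (802 higher, 283 lower), and with FF2 alone against the F arrays of its day 671 (519 higher, 152 lower). With 1 FF array of the first day alone against F, settings added later, there were 1332 calls for FF1 (1004 higher, 328 lower), 815 for FF3 (592 and 223), 629 for FF4 (495 and 134) and 1129 for FF5 (838 and 291). A lone array is assumed to vary like the F arrays. In the fits of the day 99.8% of the 5939 probes kept their sign, with medians of 1.03 and -1.13. With only the FF arrays of the first day, also added later, 5472 were called. This is the same fit as the one without FF2, and it is counted again among the 35 settings. FF and F share no scan day in it, so it does not bear on the day. With the replicate number as a block 4716 were called. Deviations of arrays with the same number correlated at -0.08 to 0.17, and 1 of the 5 FF arrays correlated best with its own number.

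The 4 named probes kept direction and call under every setting, with 1 exception. CUST_6240_PI415922062 kept its direction but was not called with any 1 FF array alone (with FF2 a change of 4.50). The 4 were picked for large changes without overlap in these same arrays, which favours this. The distance between FF and F was 132 to 138 with arrays left out (exact p of 0.0030 or less) and 234 at the 75th percentile. The 17 differences against SS minus S became 27 in the authors' matrix, 42 with all 6 groups in 1 fit, 158 with array weights, 2 with slide as a random block and 5 to 51 with arrays left out, and the cause was not tested. Those against SF minus S were 0 in limma under all 30 settings (smallest adjusted p 0.194). Brightness over background, lower in F, limits what is known of dim probes there.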
